A study of Mus musculus with 12 samples.

Results

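Ligands and receptors of the axon guidance families were examined in 12 mouse rhabdoid tumors (RTs). The genes were chosen by name. They are the semaphorins, plexins, Eph receptors, ephrins, Slit and Robo proteins, the netrins and the Unc5 receptors listed in the files, together with Dcc, Nrp1 and Nrp2. Slitrk and Ntng genes were left out. This gave 69 of the 24060 genes listed, 35 of them ligands and 34 receptors, in 13 families.

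The tumors came from P0-CreC;Smarcb1 flox/flox mice on the FVB/N background, in which the promoter of the myelin protein zero gene drives Cre in early neural crest cells and in the Schwann cell lineage, so that both copies of Smarcb1 are deleted there. The labels give the locations retro-orbital (4 tumors), cheek (3 tumors), meninges (3 tumors), vestibular nerve (1 tumor) and trigeminal nerve (1 tumor). All 12 tumors carry the same genotype, no age is given, and neither normal nerve nor other control tissue was analysed here. Identifiers in the labels share their first part for 6 tumors, in 3 pairs: cheek 1 with meninges 1, cheek 2 with cheek 3, and retro-orbital 3 with the trigeminal tumor. Whether each pair came from 1 mouse is not stated, and p-values measure the spread between these tumors only.

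Axon guidance cues steer growing axons and migrating cells, among them the neural crest. Semaphorins signal through plexins, and the secreted class 3 semaphorins mostly need a neuropilin as co-receptor. Ephrins are membrane-bound ligands of Eph receptor tyrosine kinases and signal in both directions between touching cells. Slits repel through Robo receptors, and netrins attract through Dcc and repel through Unc5 receptors. Several of these genes also act in blood vessels and epithelia.

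RNA depleted of ribosomal RNA was sequenced, and the unit throughout is RPKM, the reads of a gene scaled to its transcript length and to the mapped reads of the tumor, which can be compared between genes. The totals to which the values were scaled, recovered from the steps between low values, ranged from 13206168 to 57128422 fragments per tumor. They are the totals behind the RPKM values and need not equal the number of reads sequenced. Smarcb1 itself was listed at 1.70 to 6.31 RPKM (median 4.61), with no undeleted tissue beside it. Summed markers of other cell types differed widely between tumors: 9 endothelial genes summed to 25.8 to 121 RPKM, 8 genes of macrophages and leukocytes to 463 to 2115, 8 of skeletal muscle to 7.42 to 612, 8 of epithelium and gland to 10.6 to 3403, 8 of astrocytes and oligodendrocytes to 3.22 to 425, 8 of neurons to 19.9 to 547 and 8 of Schwann cells to 6.47 to 115. The 6 genes of neural crest derived tumor cells summed to 237 to 3113 RPKM. The lowest sum was in the vestibular tumor, as was the lowest value of Vim in that list (114 RPKM). In such bulk samples fewer cells of a type and less RNA per cell cannot be told apart.

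Most guidance genes were transcribed somewhere, and fewer were transcribed throughout. At least 1 RPKM was reached in all 12 tumors by 31 of 69 members (44.9%), against 44.2% of all genes, in 1 to 11 tumors by 36, and in none by Dcc and Epha8. Of the 35 ligands 19 reached it in all 12 tumors, and of the 34 receptors 12 did. At 5 RPKM or more in every tumor were 7 members: the semaphorin Sema4c, the plexins Plxna1 and Plxnb2, both neuropilins, and the Eph receptors Ephb3 and Ephb4. Plxnb2 was the only one at 20 RPKM or more in every tumor, a level that 25 members reached in some tumor. The shares of all genes at 5 and 20 RPKM were not counted. The summed RPKM of the 69 members ran from 371 in cheek 2 to 793 in the trigeminal tumor.

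**Figure D1:**
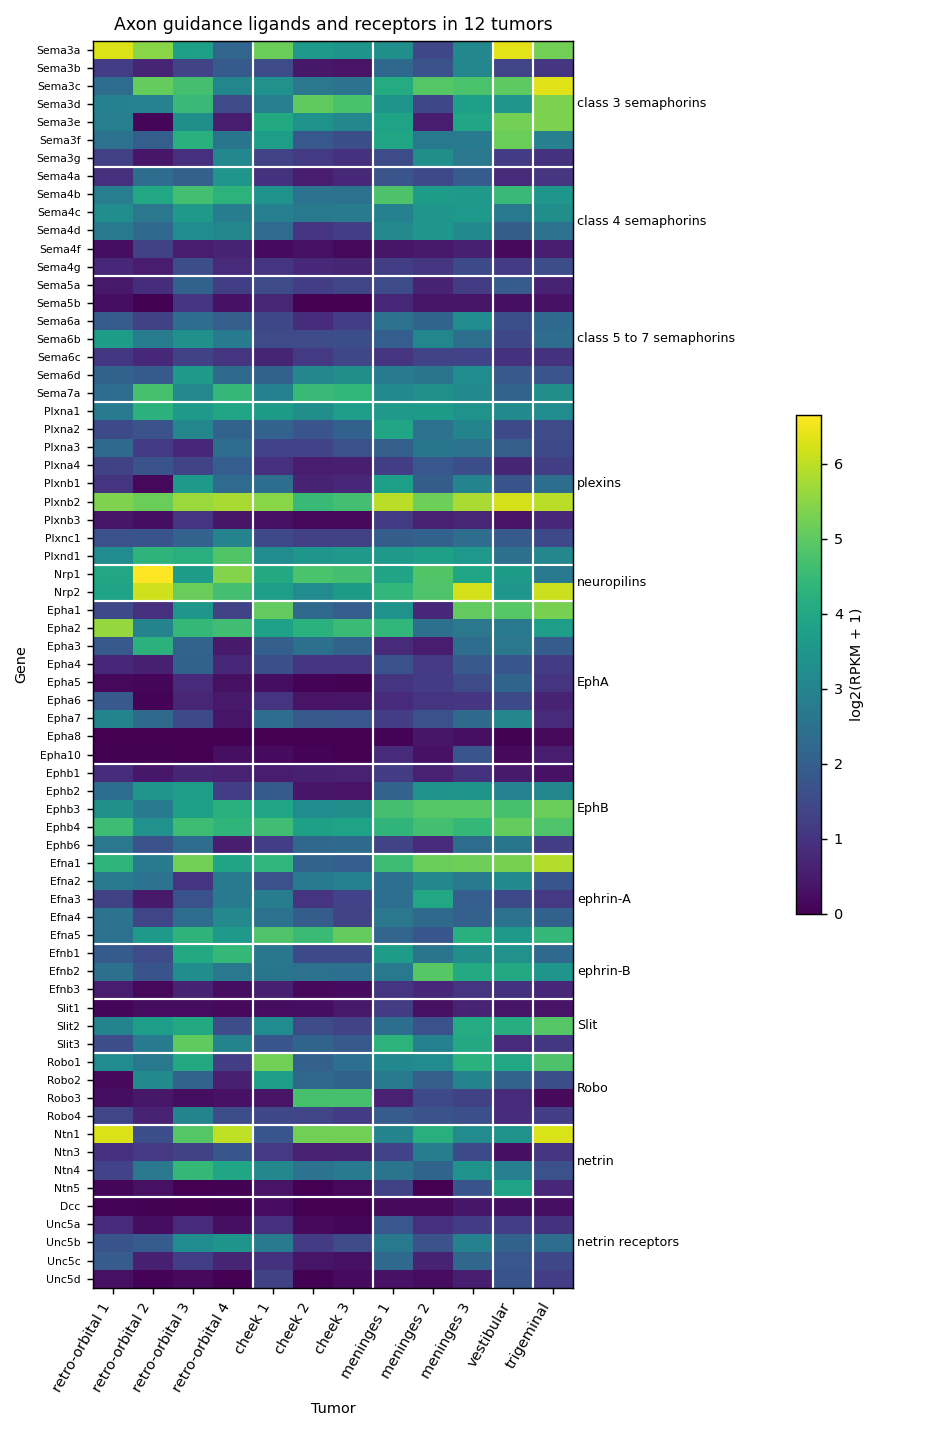
Heat map of log2(RPKM + 1) for the 69 members (rows, grouped by family) in the 12 tumors (columns, separated by location). Plxnb2 is bright across the whole row, Dcc and Epha8 are dark across theirs, and Robo3 is bright in cheek 2 and cheek 3.

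The level of a guidance gene varied more from tumor to tumor than that of a typical gene. Over the 60 members with at least 1 RPKM in at least 3 tumors, the median SD of log2(RPKM + 1) across 12 tumors was 0.80, against 0.48 over 15043 genes chosen in the same way. The members had lower levels, with a median of 4.38 RPKM against 8.18, and no test was made of this difference. The ligands had a median SD of 0.87 (31 genes) and the receptors 0.71 (29 genes). Over all 69 members, the ratio of the highest to the lowest tumor, taken on RPKM + 1, was over 10 for 19 members, between 4 and 10 for 24, between 2 and 4 for 19, and at most 2 for 7. The shares of all genes at these bounds were not counted. Cheek 2 and cheek 3 were the closest pair of tumors, with a median absolute log2 difference of 0.15 over the 60 members and no member differing by more than 2-fold. The next pair, cheek 1 and the trigeminal tumor, stood at 0.40, and the median over all 66 pairs was 0.81.

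The promoters of the members were read from RefSeq sequences on GRCm38.p6, which held 59 of the 69. Over the 250 bases before the start site, 33 of these 59 (55.9%) had a ratio of observed to expected CG dinucleotides of at least 0.6, against 36.5% of 27025 genes, taking the highest ratio where a gene had several start sites. The 27025 were all genes with a promoter sequence and were not restricted to genes transcribed in these tumors, so the 2 shares are not matched for transcription. The share was 60.7% among the 28 members at 1 RPKM in all 12 tumors and 51.6% among the other 31. The promoters of Plxnb2 and Ntn5 are shown as 2 examples, with each CG in capitals. The first is a plexin found at high level in every tumor, the second a netrin found mainly in 1 tumor. The pair does not stand for a relation of CG content to level: Epha8, which reached 1 RPKM in no tumor, had 46 CG (ratio 1.05). The Plxnb2 window shown lies on the minus strand at chr15:89180789-89181038 and has 20 CG (ratio 0.67). A further Plxnb2 window at chr15:89173952-89174201 has 13 CG (ratio 0.52). The Ntn5 window on the plus strand at chr7:45683772-45684021 has 2 CG (ratio 0.12).
Plxnb2: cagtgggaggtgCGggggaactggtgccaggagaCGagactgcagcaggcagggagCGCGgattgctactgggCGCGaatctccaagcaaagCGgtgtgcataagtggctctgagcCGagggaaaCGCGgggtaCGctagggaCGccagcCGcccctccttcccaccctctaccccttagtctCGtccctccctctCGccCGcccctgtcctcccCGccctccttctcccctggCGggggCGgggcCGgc
Ntn5: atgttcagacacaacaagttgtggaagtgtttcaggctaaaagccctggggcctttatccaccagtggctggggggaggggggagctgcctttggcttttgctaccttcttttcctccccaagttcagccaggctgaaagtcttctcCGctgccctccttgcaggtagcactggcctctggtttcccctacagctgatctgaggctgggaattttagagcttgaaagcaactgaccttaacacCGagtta

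Class 3 semaphorins, the secreted branch, reached the highest summed level of the ligand families, with 28.3 RPKM in retro-orbital 4 and 205 in the trigeminal tumor. Sema3c led the 7 genes by its median (20.4 RPKM, range 4.08 to 80.7) and Sema3a came next (11.8, range 1.65 to 82.3), but no gene led throughout: Sema3c was highest in 5 tumors, Sema3a in 4, Sema3d in 2 and Sema3g in 1. Sema3a, a classic repellent of sensory and sympathetic axons, was at 78.2, 43.0, 12.7 and 3.46 RPKM in the retro-orbital tumors, at 34.8, 10.9 and 9.78 in the cheek tumors, at 8.95, 1.65 and 7.68 in the meninges tumors, at 82.3 in the vestibular and at 37.0 in the trigeminal tumor. The retro-orbital tumors alone spanned the values of all cheek and meninges tumors except the lowest meninges value. Sema3e, which binds Plxnd1 without a neuropilin, had the widest ratio of all members (36.7 on RPKM + 1). It was at 6.29, 0.094, 8.88 and 0.45 RPKM in the retro-orbital tumors, 15.6, 9.78 and 7.42 in the cheek tumors and 13.6, 0.43 and 14.3 in the meninges tumors. The vestibular (37.1) and trigeminal (39.2) tumors were above all of these. Sema3a, Sema3c, Sema3d and Sema3e all lie on chromosome 5, between positions 12383385 (Sema3d) and 17730268 (Sema3c) of GRCm38. Sema3a was highest in the vestibular tumor and the other 3 in the trigeminal tumor.

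Among the membrane-bound semaphorins, Sema4b (median 11.4 RPKM) was the highest class 4 gene in 9 tumors and Sema4c (median 6.46) in the other 3. Sema4c, a ligand of Plxnb2, was steady, between 5.23 and 11.0 RPKM. Sema7a, which is anchored in the membrane by a lipid, led classes 5 to 7 in 9 tumors (median 8.31, range 3.35 to 25.3), followed by Sema6d (median 4.41, range 2.37 to 11.2). Sema4f and Sema5b stayed below 1 RPKM in 11 of 12 tumors each.

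The plexins were dominated by 1 gene. Plxnb2, a receptor of class 4 semaphorins, was the highest plexin in 12 of 12 tumors and had a median share of 50.1% of the summed RPKM of the 9 plexins. Its values were 40.3, 34.5, 49.1 and 54.1 RPKM in the retro-orbital tumors (44.5 ± 8.76, SD, n = 4), 43.0, 21.3 and 24.2 in the cheek tumors (29.5 ± 11.8, n = 3), 61.5, 35.3 and 54.8 in the meninges tumors (50.6 ± 13.6, n = 3), 73.6 in the vestibular and 61.4 in the trigeminal tumor. The locations overlapped, and the lowest tumors were cheek 2 and cheek 3. Plxna1 (median 11.2 RPKM) and Plxnd1 (median 10.7), the latter a vascular plexin, followed. Plxnb3 stayed below 1.2 RPKM.

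Nrp2 had the higher median of the neuropilins (22.3 RPKM, range 8.24 to 73.6, against 15.04 and 5.42 to 99.6 for Nrp1), although Nrp1 was the higher of the pair in 8 of 12 tumors. Nrp1 was at 14.7, 99.6, 11.8 and 41.4 RPKM in the retro-orbital tumors, 15.4, 26.3 and 24.3 in the cheek tumors, 13.7, 27.6 and 14.2 in the meninges tumors, 11.4 in the vestibular and 5.42 in the trigeminal tumor. Retro-orbital 2 stood above all others for Nrp1, and it also had the highest macrophage and leukocyte sum (2115 RPKM) and the lowest endothelial sum (25.8 RPKM). The part of those cells in the Nrp1 value was not tested.

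Epha2 (median 15.5 RPKM, range 4.48 to 47.8) was the highest EphA receptor in 7 tumors, Epha1 in 4 and Epha3 in 1. Epha1 was at 1.83, 0.86, 10.6 and 1.58 RPKM in the retro-orbital tumors, 32.3, 3.96 and 2.94 in the cheek tumors, 9.74, 0.67 and 32.2 in the meninges tumors, 29.2 in the vestibular and 37.9 in the trigeminal tumor. Values near 30 RPKM and values under 5 RPKM thus occurred within the same location. Exons of Epha1 overlap those of Zyx on the opposite strand in GENCODE. The libraries were made with a stranded kit, but the sources do not state whether strand was used in counting. Whether reads of Zyx entered the Epha1 values is therefore not known. Ephb4 (median 21.8, range 9.33 to 32.6) and Ephb3 (median 15.8, range 5.56 to 34.5) led the EphB receptors. Epha8 had 0 to 39 fragments per tumor.

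Among the ephrins, Efna1 (median 21.2 RPKM, range 2.998 to 57.8) was the highest ephrin-A in 8 tumors and Efna5 (median 14.5, range 2.42 to 33.1) in 4. Efnb2 (median 5.37, range 2.32 to 29.4) was the highest ephrin-B in 8 tumors and Efnb1 (median 5.03, range 1.80 to 20.7) in the other 4. Efna1, Efna3 and Efna4 are neighbours on chromosome 3, and Efna1 was the highest of the 3 by its median, with Efna3 at 1.97 RPKM.

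Slit2 and Slit3 divided the tumors equally, each the higher in 6 of 12, and Slit1 reached 1 RPKM in 1 tumor only. Slit3 ranged from 0.75 RPKM in the vestibular tumor to 31.4 in retro-orbital 3. Of the receptors, Robo1 (median 8.22 RPKM, range 1.32 to 36.4) was highest in 8 tumors. Robo3, which is known for letting commissural axons cross the midline, behaved unlike its relatives. It was at 25.2 and 25.4 RPKM in cheek 2 and cheek 3, where it was the highest Robo gene, and at 0.28 in cheek 1. The retro-orbital tumors had 0.19, 0.35, 0.19 and 0.25 RPKM, the meninges tumors 0.54, 1.79 and 1.45, the vestibular tumor 0.74 and the trigeminal tumor 0.13. The pair with high Robo3 was thus the pair that shares an identifier, and no other tumor exceeded 1.79. The sum of 8 neuronal markers was 547 and 446 RPKM in this pair, with 4 and 5 of the genes at 1 RPKM, and 19.9 to 181 in the other 10 tumors. In the pair the neurofilament genes Nefl (412 and 335 RPKM) and Nefm (91.7 and 67.6) were high, and Nefl was at most 12.5 in the other 10 tumors. Of the other neuronal markers, Snap25 was at 25.5 and 25.4 RPKM in cheek 2 and cheek 3 (5.82 to 30.9 elsewhere) and Stmn2 at 16.8 and 17.1 (1.64 to 150 elsewhere). Rbfox3 was at 0.062 and 0.015, Gad1 at 0.10 and 0.19 and Syt1 at 0.24 and 0.22 RPKM, and none of the 8 was at 0. What neuronal RNA contributes to Robo3 there was not tested. Robo3 lies at chr9:37415669-37433246 on the minus strand, next to Robo4, an endothelial Robo gene, at chr9:37401897-37415115 on the plus strand. Robo4 was at 1.63 and 1.27 RPKM in cheek 2 and cheek 3, inside its range in the other tumors (0.59 to 7.004).

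Ntn1, the founding netrin, had the highest median of its family (23.2 RPKM) and an uneven pattern. It was at 78.2, 2.01, 29.0 and 63.5 RPKM in the retro-orbital tumors, 2.46, 36.5 and 36.8 in the cheek tumors, 6.97, 17.4 and 8.31 in the meninges tumors, 9.54 in the vestibular and 76.8 in the trigeminal tumor. High and low tumors stood within 1 location, as the retro-orbital and cheek values show. Ntn4 (median 5.38, range 1.53 to 20.6), a netrin of basement membranes, was the higher in 3 tumors. Ntn5 was at 13.4 RPKM in the vestibular tumor, from 841 fragments, and at no more than 2.31 in the other 11, with 0 fragments in 3 of them. Ntn5, singled out after its values were seen, overlaps Sec1 on the opposite strand.

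The netrin receptors were low. Unc5b (median 3.66 RPKM, range 1.27 to 9.84) was the highest of the 5 in 11 tumors and Unc5c (median 1.17) in retro-orbital 1. Dcc, the attractive netrin receptor, had 0 to 61 fragments and at most 0.33 RPKM per tumor. Unc5a and Unc5d reached 1 RPKM in 3 tumors each.

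**Figure D2:**
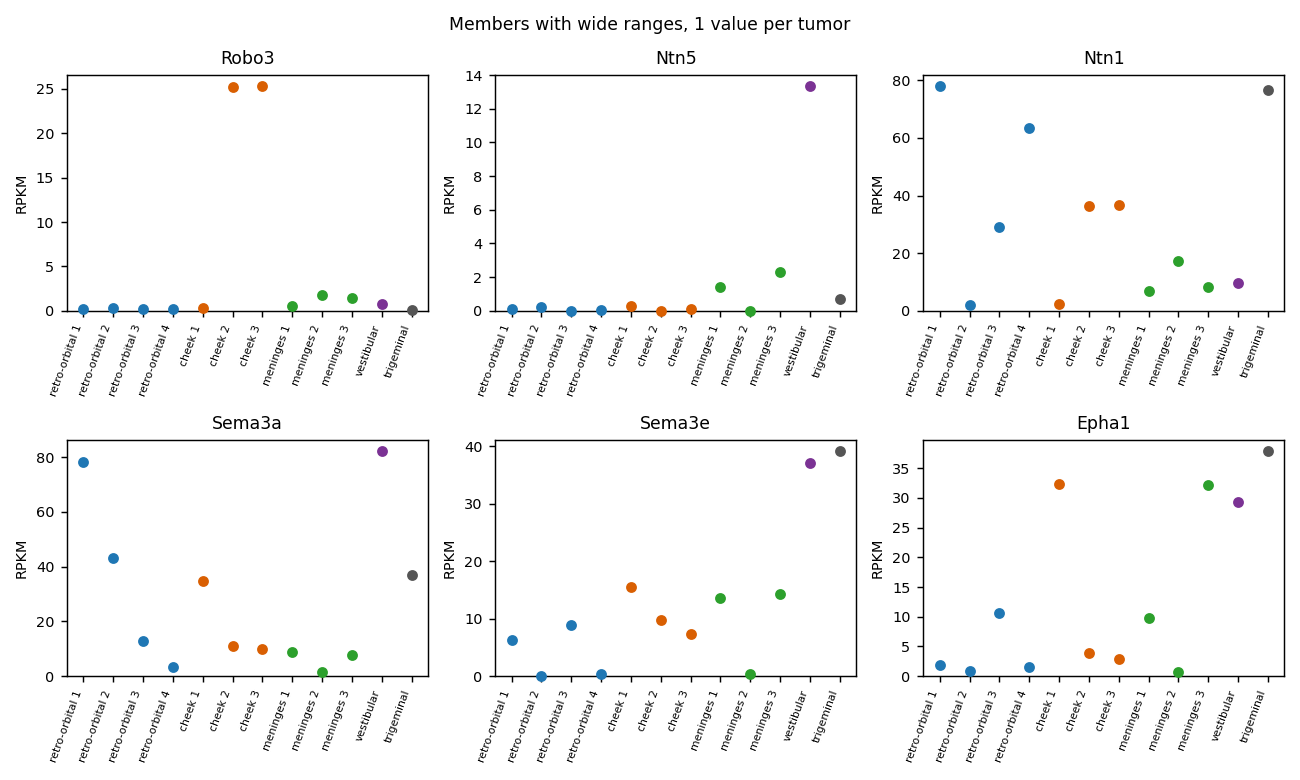
RPKM of 6 members with wide ranges in each tumor (x axis, 1 point per tumor, colored by location, linear y axis from 0). Robo3 stands at 25.2 and 25.4 in cheek 2 and cheek 3 only, Ntn5 at 13.4 in the vestibular tumor only, while Ntn1, Sema3a, Sema3e and Epha1 have both high and low tumors within a location.

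To ask which of 2 related genes dominated in the same tumor, 8 pairs of family members were compared across the 12 tumors by an exact two-sided sign-flip permutation test of the mean difference of log2(RPKM + 1), with Benjamini-Hochberg adjustment over the 8. Of these, 5 passed 0.05. Plxnb1 minus Plxnb2 was -3.50 ± 0.89 (SD, n = 12; 12 of 12 tumors; permutation p = 0.00049, the smallest the test can give; adjusted p = 0.0026). Plxna1 exceeded Plxna2 by 1.30 ± 0.76 (11 of 12 tumors; adjusted p = 0.0026) and Unc5b exceeded Unc5c by 1.09 ± 0.80 (11 of 12 tumors; adjusted p = 0.0026). Robo1 exceeded Robo2 by 1.23 ± 1.17 in 10 of 12 tumors (adjusted p = 0.0088). The test counts the 12 tumors as independent, although 6 share identifiers. With 1 tumor per identifier these 4 pairs still passed, at larger adjusted permutation p-values. They were 0.016 for both plexin pairs, 0.021 for Unc5b and Unc5c and 0.039 for Robo1 and Robo2. Ntn1 exceeded Ntn4 by 1.49 ± 2.03 in 9 of 12 tumors (adjusted p = 0.041), a call that 6 tumors decided: without retro-orbital 1 or 4, cheek 2 or 3, meninges 2 or the trigeminal tumor the adjusted p was 0.077 to 0.081, with 1 tumor per identifier 0.19, and with a pseudocount of 0.1 in place of 1 it was 0.052. The other 3 pairs missed the threshold, with differences of -0.27 ± 1.45 for Nrp1 minus Nrp2, 0.37 ± 1.85 for Slit2 minus Slit3 and -0.34 ± 1.11 for Efnb1 minus Efnb2, each SD larger than its mean.

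**Figure D3:**
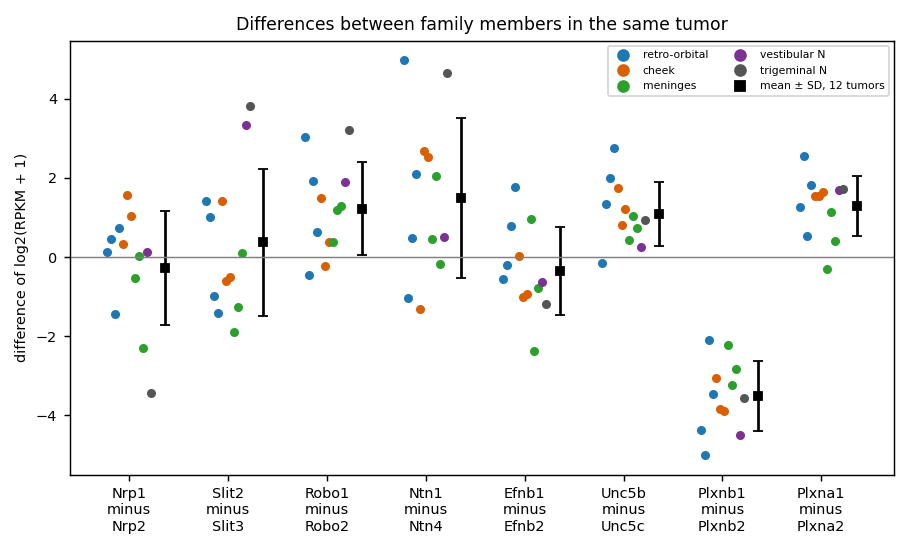
Difference of log2(RPKM + 1) between the genes of 8 pairs in each tumor (points colored by location), with the mean ± SD over 12 tumors as black squares and bars. All 12 points lie below 0 for Plxnb1 minus Plxnb2, whereas the points of Nrp1 minus Nrp2, Slit2 minus Slit3 and Efnb1 minus Efnb2 spread on both sides of 0.

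Whether guidance genes followed the location of the tumor was asked with limma on log2(RPKM + 1) over the retro-orbital, cheek and meninges tumors. Of the 69 members 57 reached 1 RPKM in at least 3 of these 10 tumors and were tested among 14745 genes. No member passed an adjusted p of 0.05 in the F test over the 3 locations, where 0.0407% of all genes tested did (6 genes). At an unadjusted p under 0.05 were 13 of 57 members (22.8%) against 14.3% of all genes. The contrasts gave no member either, with 0.0271% of genes called between cheek and retro-orbital tumors, 0.0203% between meninges and retro-orbital tumors and 0.0475% between cheek and meninges tumors. At an unadjusted p under 0.05 these had 8 members (background 12.0%), 5 members (background 9.14%) and 19 members (33.3%, background 17.0%), respectively. In the cheek tumors 41 of 57 members were lower than in the meninges tumors (71.9%; 61.9% of all genes), with a median log2 difference of -0.56 (all genes -0.16). Against the retro-orbital tumors 40 of 57 were lower in the cheek tumors (70.2%; 51.4% of all genes), with a median of -0.30 (all genes -0.02). Between meninges and retro-orbital tumors the median was 0.25 (all genes 0.13). The cheek medians rest on 3 tumors of which 2 share an identifier. With the identifier as a random block in limma, these calls changed. In the F test 13 of 57 members passed, beside 2802 of 14745 genes. Between cheek and meninges 22 of 57 passed, beside 4243 of 14745 genes. In that contrast the limma adjusted p was 0.0073 for Sema4d, 0.0036 for Sema6a and 0.0028 for Epha5. Their log2 differences were smaller than without the block, at -0.93 (-1.75 without), -1.12 (-1.47) and -0.83 (-1.13), respectively. Among the fitted tumors the block joined cheek 1 with meninges 1 and cheek 2 with cheek 3. Only the first of these pairs spans cheek and meninges. At the consensus correlation of 0.93 the difference within that pair carries most of the weight in this contrast. The blocked p-values thus rest mainly on 1 pair of tumors and do not measure a replicated difference between locations. With 1 tumor per identifier no member passed.

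The 6 members with the smallest F test p were Sema6b, Sema4d, Ephb3, Epha5, Sema6a and Plxna4, and they had adjusted p-values from 0.18 to 0.29 in limma. Sema6b, a transmembrane semaphorin, was at 11.7, 6.12, 9.07 and 5.78 RPKM in the retro-orbital tumors (8.16 ± 2.78), 1.92, 1.91 and 2.02 in the cheek tumors (1.95 ± 0.060) and 2.998, 7.23 and 4.49 in the meninges tumors (4.91 ± 2.15). All 3 cheek tumors lay below the other 7 of these locations, while the vestibular tumor was lower still at 1.74. The fit gave a log2 difference of the cheek from the retro-orbital tumors of -1.59 (SE 0.31; limma adjusted p = 0.17). Sema4d, a ligand of Plxnb1 that is also known from lymphocytes, was at 5.77, 3.88, 8.42 and 7.34 RPKM in the retro-orbital, 3.998, 1.01 and 1.35 in the cheek and 7.74, 10.3 and 8.07 in the meninges tumors. Its cheek values lay below the meninges values but overlapped the retro-orbital ones (cheek against meninges -1.75, SE 0.38, limma adjusted p = 0.11). The sum of 8 macrophage and leukocyte markers was lower in the cheek tumors too, at 656 to 720 RPKM against 879 to 2115 in the retro-orbital and 1000 to 1558 in the meninges tumors, with all 8 genes at 1 RPKM in every tumor. C1qa, C1qb, Csf1r and Ptprc were each lower in all 3 cheek tumors than in the other 7. The cheek values of Cd68, Fcgr3, Aif1 and Itgam overlapped those of the retro-orbital or meninges tumors. The part of these markers in Sema4d and in the lower cheek values of other members was not tested.

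Ephb3, an Eph receptor of neural crest and gut epithelium, was at 9.19, 5.56, 12.7 and 17.6 RPKM in the retro-orbital tumors (11.3 ± 5.12), 14.0, 8.48 and 8.70 in the cheek tumors (10.4 ± 3.15) and 24.9, 28.7 and 29.2 in the meninges tumors (27.6 ± 2.34). The meninges tumors were above the other 7 without overlap (against retro-orbital 1.32, SE 0.33, limma adjusted p = 0.39), although the vestibular (25.2) and trigeminal (34.5) tumors were as high. Epha5, a neuronal Eph receptor, was low throughout, at 0.091 to 0.76 RPKM in the retro-orbital, 0.029 to 0.19 in the cheek and 1.06 to 1.88 in the meninges tumors. Its highest value was in the vestibular tumor (3.39), and the trigeminal tumor had 1.01. The sum of 8 astrocyte and oligodendrocyte markers was 129 to 425 RPKM in the meninges tumors, 10.1 to 21.8 in the cheek tumors and 3.22 to 282 in the retro-orbital tumors, with 6 to 8, 1 to 3 and 1 to 5 of its genes at 1 RPKM. At most 1 of the 8 was at 0 in any tumor. Their part in the Ephb3 and Epha5 values was not tested. Sema6a was at 1.495 to 4.22, 0.81 to 1.69 and 3.43 to 8.46 RPKM in retro-orbital, cheek and meninges tumors, and Plxna4, a partner of class 3 and class 6 semaphorins, at 1.42 to 2.93, 0.42 to 0.88 and 1.30 to 2.47.

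**Figure D4:**
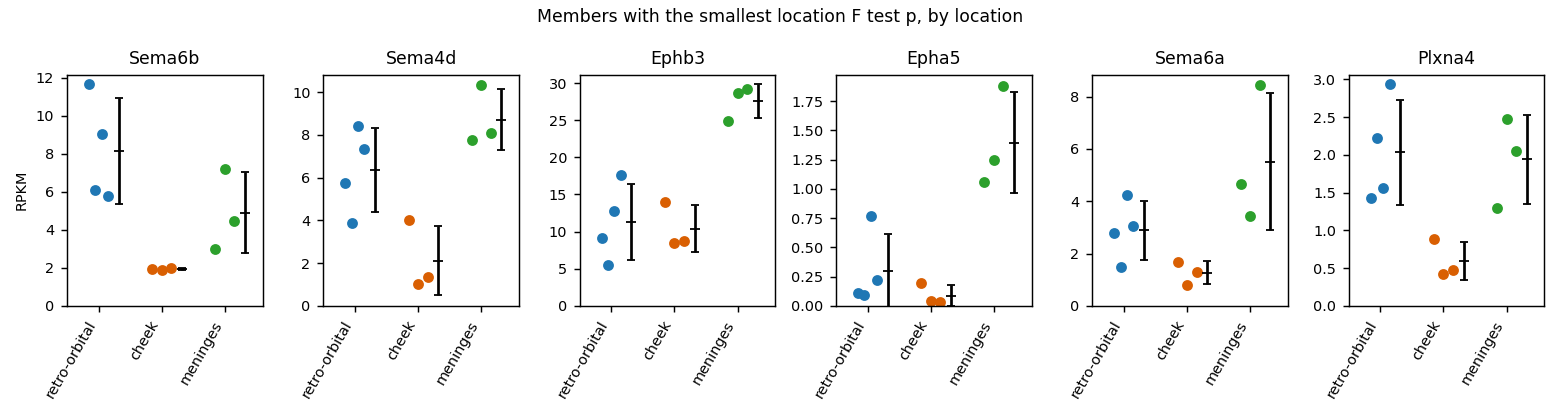
RPKM of the 6 members with the smallest location F test p, with 1 point per tumor and the mean ± SD of each location beside it (linear y axes from 0, each with its own scale). Among the 10 tumors plotted, the cheek points of Sema6b and Plxna4 lie below the other 7 and the meninges points of Ephb3 and Epha5 above the other 7. The vestibular and trigeminal tumors are not plotted.

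By a count of tumors rather than a fit, 7 of the 57 members (12.3%) had 1 location wholly above or below both others, against 11.5% of all genes tested. Efna5 was higher in all 3 cheek tumors (1 of 57; 2.56% of all genes). Nrp2, Plxna4, Plxnc1 and Sema6b were lower in all 3 cheek tumors (4 of 57; 3.4% of all genes). Epha5 and Ephb3 were higher in all 3 meninges tumors (2 of 57; 3.13% of all genes), and no member was lower there in all 3 (background 1.03%). No member set the retro-orbital tumors apart (background 0.631% above and 0.8% below). Without cheek 1, limma called 2 of 57 members in the F test (Robo3 and Sema4d), beside 198 of 14530 genes. It called 3 of 57 between cheek and meninges (Efna1, Robo3 and Sema4d), beside 527 of 14530 genes. The cheek location then consisted only of the pair sharing an identifier. Robo3 was then 4.40 log2 units above the retro-orbital tumors (limma adjusted p = 0.0010), against 2.95 (SE 0.92, limma adjusted p = 0.30) with all 3.

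Other genes of these pathways were counted in the same fits. Of 21 co-receptors and other cues 16 were tested, and none passed an adjusted p of 0.05 in limma in the F test or any contrast (6 at an unadjusted F test p under 0.05, background 14.3%). Of the 21, 9 reached 1 RPKM in all 12 tumors, as 44.2% of all genes did. Among these 9 were the netrin and Rgm receptor Neo1, a relative of Dcc, at 8.37 to 22.3 RPKM (median 16.8), the protease Adam10 at 37.1 to 53.2, and the Hedgehog co-receptor Boc at 5.04 to 145. Of 46 intracellular effectors 45 were found and 43 tested, again with none called in limma (3 at an unadjusted F test p under 0.05, same background). Of the 45, 34 reached 1 RPKM in all 12 tumors. The actin-severing factor Cfl1 (312 to 461 RPKM) was high and narrow in range. Ngef, an exchange factor downstream of EphA receptors, ranged from 0.40 to 51.1 RPKM and was highest in cheek 3.

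The single vestibular and trigeminal tumors had no replicate and were placed against the range of the other 10. In the vestibular tumor 12 of 60 members were above all 10 (Sema3a, Sema3e, Sema3f, Slit2, Ntn5, Efna1, Efna2, Epha5, Epha7, Ephb4, Plxnb2 and Unc5d), where 21.1% of 15043 genes were, and 7 were below all 10 (background 9.68%). Ntn5 and Unc5d reached 1 RPKM in 3 tumors each, with the vestibular tumor among them. They were thus among the 60 only through the tumor where they were high, and their place above the others carries no weight. The 15043 genes were chosen by the same rule. In the trigeminal tumor 9 of 60 were above (Sema3c, Sema3d, Sema3e, Sema4g, Slit2, Efna1, Epha1, Ephb3 and Ephb4; background 7.09%) and 5 below (background 8.28%). Sema3e, Slit2, Efna1 and Ephb4 were above the other 10 in both tumors, and Nrp1, Plxnd1, Sema6d and Slit3 below them in both. The share of all genes outside the range in both tumors was not counted, so this overlap is not read as a trait of guidance genes. Slit2 was at 16.5 RPKM in the vestibular and 28.6 in the trigeminal tumor and between 1.58 and 16.1 in the other 10. The vestibular tumor had low sums of neural crest derived tumor cell markers (237 RPKM, the others 619 to 3113) and of macrophage and leukocyte markers (463 RPKM, the others 656 to 2115). In the first list Vim (114 RPKM, the others 341 to 3001) and Ets1 (3.14, the others 4.98 to 55.8) were lowest there. Twist1 (103, the others 10.9 to 192), Zic1, Sox9 and Fabp7 lay inside the range of the others. In the second list Ptprc, Csf1r, Cd68, Itgam, C1qa and C1qb were lowest in the vestibular tumor, while Aif1 and Fcgr3 lay inside the range of the others. The part of these markers in the values of the vestibular tumor was not tested.

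Ligands were set against their receptors across the 12 tumors in 12 relations, with 4 further relations of vascular genes to endothelial markers, all on log2(RPKM + 1), with permutation p-values from 100000 resamples and adjustment over the 16. Slit2 and Robo1 were positively related (Pearson's r = 0.75, adjusted permutation p = 0.029; Spearman's rho = 0.78, adjusted p = 0.023), and r was 0.68 without the 2 tumors farthest from the median of Slit2 (permutation p = 0.030). With 1 tumor per identifier (9 tumors) r was 0.68 but the adjusted permutation p 0.19, and leaving out retro-orbital 4, cheek 2, cheek 3, meninges 3, the vestibular or the trigeminal tumor gave adjusted permutation p-values of 0.050 to 0.079. Sema3e and Plxnd1 were inversely related (r = -0.80, adjusted permutation p = 0.014; rho = -0.81, adjusted p = 0.018; r = -0.86 without the 2 farthest tumors, permutation p = 0.0042). The relation passed the threshold neither without the vestibular tumor (r = -0.76, adjusted permutation p = 0.050), nor without retro-orbital 4 (r = -0.74, adjusted permutation p = 0.069), nor with 1 tumor per identifier (r = -0.79, adjusted permutation p = 0.068). The tumors with the least Sema3e were retro-orbital 2, meninges 2 and retro-orbital 4, at 0.094, 0.43 and 0.45 RPKM, and they had 19.1, 12.6 and 27.9 RPKM of Plxnd1.

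Robo4 followed the mean of 9 endothelial markers (r = 0.83, adjusted permutation p = 0.0085; rho = 0.89, adjusted p = 0.0040; r = 0.74 without the 2 farthest tumors, permutation p = 0.0044), also with 1 tumor per identifier (r = 0.84, adjusted permutation p = 0.023). Without the vestibular tumor the adjusted permutation p was 0.050 at r = 0.81. Plxnd1 (r = 0.36, adjusted permutation p = 0.51), Ephb4 (r = 0.30, adjusted permutation p = 0.56) and Sema3g (r = 0.63, adjusted permutation p = 0.080) missed the threshold against these markers. These 3 values turned on single tumors: without retro-orbital 2 r was 0.77 for Plxnd1 (adjusted permutation p = 0.031) and -0.15 for Ephb4, without the vestibular tumor 0.12 for Plxnd1 and 0.65 for Ephb4 (adjusted permutation p = 0.087), and without retro-orbital 3 it was 0.83 for Sema3g (adjusted permutation p = 0.0078). Of the remaining ligand and receptor pairs, Efnb2 with Ephb4 (r = 0.68) and Sema4d with Plxnb1 (r = 0.68) each had an adjusted permutation p of 0.051. Efnb2 with Ephb4 passed without retro-orbital 1, cheek 1 or meninges 2 (adjusted permutation p = 0.030 to 0.047) and with a pseudocount of 0.1 (0.047), and Sema4d with Plxnb1 without retro-orbital 1, retro-orbital 2 or meninges 2 (adjusted permutation p = 0.035 to 0.038). With 1 tumor per identifier both were at 0.19. The other 8 had r between -0.30 (Ntn1 with Dcc) and 0.44 (Efna5 with Epha3), with adjusted permutation p-values of 0.35 to 0.77.

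**Figure D5:**
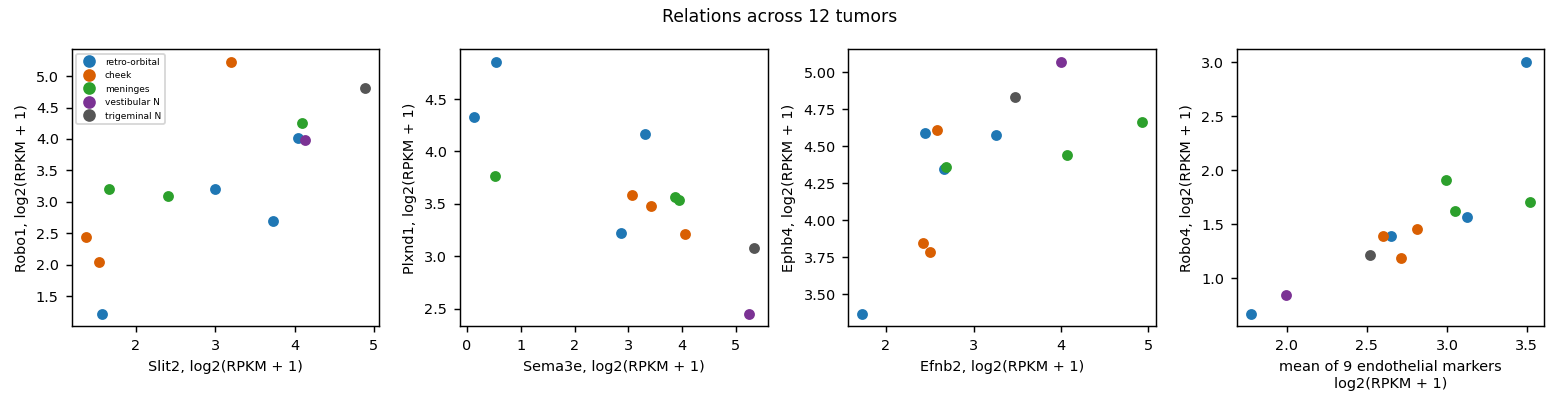
Scatter plots across the 12 tumors, 1 point per tumor colored by location, both axes in log2(RPKM + 1). Robo1 rises with Slit2 (r = 0.75), Plxnd1 falls with Sema3e (r = -0.80), Ephb4 against Efnb2 has r = 0.68 (adjusted permutation p = 0.051) and Robo4 rises with the mean of 9 endothelial markers (r = 0.83).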

How the data were processed

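RNA sequencing data of 12 tumors were used. STAR was used by the authors for alignment to mm10, HTSeq tallied the fragments of uniquely placed reads per RefSeq gene, and the deposited tables hold RPKM. The submitters' processing notes also name bcl2fastq 2.17, edgeR and limma. The strand setting of the counting is not given in the sources used here. Exons of further members overlap those of listed genes, among them Ephb4 with Zan and Unc5a with Hk3 on the opposite strand and Ntn3 with Tbc1d24 on the same strand. RPKM values are not counts, so limma 3.58.1 (R 4.3.3) was run on log2(RPKM + 1) with trended, robust variances over genes at 1 RPKM or more in at least 3 fitted tumors, with Benjamini-Hochberg adjustment at 0.05. This scale understates changes of low genes. Groups follow the location in the labels. Permutation tests used Python 3.11.15 and numpy 2.4.6. Fragments were recovered from the RPKM steps, all 12 values of a gene being whole within 0.02. Positions, and the lengths used to recover the totals, came from GENCODE M21 on GRCm38, the build of mm10. The length of each member was instead fitted, as the smallest whole length that made its 12 values whole. It matched no annotated length for many members, Dcc and Epha8 among them. The recovery of the totals, the pair test, the relation test and the limma fit without a block were tried on simulated data. No simulated tumors shared an identifier, and the fit with the identifier as a random block was not simulated.

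The members and lists were chosen with earlier results of these data known. Named genes were the 6 members with the smallest F test p, the 2 with the highest median in each family, the 6 with the widest ratio of RPKM + 1, and those of the preset pairs and relations. Pseudocount, filter, normalization, variance model, fitted tumors and identifier were varied, and each tumor was left out in turn. Rows with a date in place of a symbol (27) were kept but never named.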

Additional observations from a re-analysis of the deposited data

Results flagged for a closer look

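In the 4 retro-orbital tumors, 2 members had 1 tumor far from the other 3, by a gap larger than Dixon's 95% critical share of the whole range on the log2(RPKM + 1) scale, out of 58 members examined. Chance marks about 1 in 20 groups, or 2.9 of 58, so 2 is no more than chance gives. Both were retro-orbital 3. Epha4, a receptor of many ephrins, was at 3.22 RPKM there and at 0.51 to 0.67 in the other 3 (gap of 0.90 of the range). Efna2, an ephrin-A ligand, was at 1.02 RPKM there and at 4.84 to 5.62 in the other 3 (gap of 0.89 of the range). Retro-orbital 3 had the highest epithelium and gland marker sum of the 12 tumors (3403 RPKM), with Lcn2 alone at 2600 RPKM. Cdh1, Krt8 and Cldn4 were also highest there, whereas Epcam, Krt18, Krt5 and Krt14 were higher in other tumors. The part of these markers in the Epha4 and Efna2 values was not tested.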

How the results depend on the processing

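The 0 members called by location stayed at 0 for the meninges against retro-orbital contrast under all 18 alternatives, and for the other 3 fits with the exceptions that follow. With the identifier as a random block, 13 of 57 members were called by the F test and 22 of 57 between cheek and meninges. Beside them were 2802 and 4243 of 14745 genes (consensus correlation 0.93). Of the joined pairs only cheek 1 with meninges 1 spans cheek and meninges, so that contrast rests mainly on 1 pair. The cause of the change was not tested. Leaving out 1 tumor gave 0 to 2 members by the F test, 0 to 2 between cheek and retro-orbital and 0 to 3 between cheek and meninges. These were above 0 only without cheek 1, where 198, 147 and 527 of 14530 genes were called, respectively. With 1 tumor per identifier, added after the data were seen, all 4 fits gave 0. Of the preset relations 3 passed with all tumors, 1 with 1 tumor per identifier and 0 to 5 with 1 tumor left out, 0 being without the vestibular tumor and 1 without retro-orbital 4. In the vestibular tumor 11 members were below the other 10 after quantile normalization, against 7 before. Of the values that missed the threshold, 5 changed sign when 1 tumor was left out: the Nrp1 minus Nrp2 difference (-0.44 to 0.013), and r of Slit3 with Robo1 (-0.28 to 0.030, and 0.0022 with 1 tumor per identifier), of Ntn1 with Unc5b (-0.32 to 0.0033), of Sema3f with Nrp2 (-0.29 to 0.13) and of the endothelial markers with Ephb4 (-0.15 to 0.65). No pair or relation that passed changed sign. The small locations limit what could be detected, and depth set the precision of genes such as Dcc and Epha8.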
